A study of Mus musculus with 56 samples.

Results

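The genes described here set the supply of glycerol backbone and the fate of pyruvate in fat: Pck1, Pcx and Gpd1, the pyruvate dehydrogenase kinases Pdk1, Pdk2 and Pdk4, the pyruvate dehydrogenase phosphatases Pdp1 and Pdp2, and Pdha1, a subunit of pyruvate dehydrogenase. The 9 genes were chosen by name for their place in the pathway, with earlier results of these data known. They were matched through their Ensembl identifiers, out of 25939 genes in the table. All 9 were measured in all 56 libraries. RNA came from the visceral adipose tissue (VAT) of 56 female C57BL/6J mice that were 9 weeks old and lived in 12 h of light and 12 h of dark. For the last 7 days they were fed at night only (nighttime-restricted feeding, NRF, the reference) or by day only (daytime-restricted feeding, DRF). Zeitgeber time (ZT) counts hours from lights on, and each regimen gave 4 mice every 4 h between ZT0 and ZT24 (7 time points), so that ZT0 and ZT24 are separate mice at the same clock time. The comparison asks which of these genes followed the meal and which followed the light when feeding was inverted. Each mouse gave 1 library, and the labels name them as separate samples.

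White fat cells store fatty acids as triglyceride, which needs glycerol 3-phosphate as its backbone. In the fed state this comes from glucose through dihydroxyacetone phosphate, which glycerol 3-phosphate dehydrogenase (Gpd1) reduces. In the fasted state fat cells instead can make it from pyruvate and amino acids by glyceroneogenesis, in which pyruvate carboxylase (Pcx) makes oxaloacetate and cytosolic phosphoenolpyruvate carboxykinase (Pck1) makes phosphoenolpyruvate. Pyruvate carboxylase also feeds citrate export for fatty acid synthesis. The alternative fate of pyruvate is oxidation by pyruvate dehydrogenase, whose E1 alpha subunit (Pdha1) is switched off when a kinase (Pdk1 to Pdk4) phosphorylates it and switched on when a phosphatase (Pdp1, Pdp2) removes the phosphate. Transcripts are not activities, and phosphorylation was not measured here.

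Levels are given as CPM, whole reads recovered from the deposited values and scaled by the library size that these values imply, which is not the sum of the recovered reads. Differences are given as log2(CPM + 1). The libraries held 30466042 to 40352088 recovered reads on genes (median 34948596), and the members 397 reads (Pdp1, lowest library) to 222439 reads (Pcx, highest library). All 6 adipocyte markers were present, with a summed level of 8747 to 31095 CPM and a median of 20726 CPM. Replicate 4 of DRF ZT0 and replicate 1 of DRF ZT8 stood apart, with 1311 and 606 CPM of 6 epithelial markers against 40.4 to 122 CPM under NRF. Replicate 1 of DRF ZT8 also had the lowest adipocyte sum. Replicate 4 of NRF ZT24 had 1539 CPM of 4 liver markers against at most 75.2 CPM elsewhere, and replicate 2 of NRF ZT8 had the highest sum of 4 macrophage markers, 1589 CPM against a median of 720 CPM. Of 5 skeletal muscle markers, replicate 4 of NRF ZT8 had the highest sum, 485 CPM, with 369 CPM in the next library and a median of 46.8 CPM. Replicate 4 of NRF ZT24 was also high in a muscle marker (Myh4, 65.7 CPM against a median of 0.074 CPM). In bulk tissue, fewer fat cells and less RNA per fat cell cannot be told apart.

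In GRCm38, the build of the files, the genes that supply the backbone are Pck1 at chr2:173153048-173159273 (plus strand), Pcx at chr19:4510472-4621752 (plus) and Gpd1 at chr15:99717515-99725005 (plus). The kinases are Pdk1 at chr2:71873224-71903858 (plus), Pdk2 at chr11:95026258-95041354 (minus) and Pdk4 at chr6:5483351-5496309 (minus). The phosphatases are Pdp1 at chr4:11958184-11966452 (minus) and Pdp2 at chr8:104591451-104599026 (plus), and Pdha1 lies at chrX:160122209-160138413 (minus). Reads were counted over the exons of each gene. Per kb of exon, the median library had 643 CPM of Gpd1, 257 of Pck1 and 208 of Pdha1, and among the regulators 38.8 of Pdk2, 22.3 of Pdk1, 19.1 of Pdk4, 6.47 of Pdp2 and 3.35 of Pdp1. The kinase transcripts thus had higher medians than the phosphatase transcripts on this scale.

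The 250 bases before the RefSeq start are shown for Pck1, Pdk2 and Pdp2, because these 3 genes were rhythmic under both regimens with inverted peaks (GRCm38.p6, 5′ to 3′ on the strand of the gene). For Pdk2, with more than 1 listed start, the first was taken. Capitals mark matches to the motifs named after them. The windows are chr2:173152823-173153072 for Pck1 (plus strand), chr11:95041372-95041621 for Pdk2 (minus strand) and chr8:104591222-104591471 for Pdp2 (plus strand).
Pck1: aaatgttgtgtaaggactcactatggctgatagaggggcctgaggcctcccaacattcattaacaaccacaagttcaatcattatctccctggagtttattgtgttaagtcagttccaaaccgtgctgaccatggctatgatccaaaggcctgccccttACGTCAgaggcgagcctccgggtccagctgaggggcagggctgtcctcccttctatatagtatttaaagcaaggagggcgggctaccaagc
Pdk2: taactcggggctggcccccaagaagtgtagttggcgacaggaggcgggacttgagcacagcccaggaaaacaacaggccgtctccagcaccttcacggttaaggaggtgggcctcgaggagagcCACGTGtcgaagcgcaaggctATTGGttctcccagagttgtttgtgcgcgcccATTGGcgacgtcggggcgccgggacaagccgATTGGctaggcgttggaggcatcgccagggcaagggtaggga
Pdp2: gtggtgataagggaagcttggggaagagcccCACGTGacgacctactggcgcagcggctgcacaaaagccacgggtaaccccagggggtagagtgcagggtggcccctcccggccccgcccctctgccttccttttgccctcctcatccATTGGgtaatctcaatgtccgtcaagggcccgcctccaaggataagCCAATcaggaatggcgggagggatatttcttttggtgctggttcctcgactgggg

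The windows searched ran from 250 bases before to 50 after the start, on both strands, in the 7 members with an entry and in all 32851 entries. The Pck1 window held the core of the cAMP response element, ACGTCA, 91 to 86 bases before the start, as did 7.51% of all windows. It held none of the full element TGACGTCA (1.79% of windows; it contains ACGTCA), the FOXO site GTAAACA (3.65%), the nuclear receptor site AGGTCA (16.3%), the DR1 direct repeat of that site (0.0396%; it contains AGGTCA), the glucocorticoid receptor site AGAACA (19.0%), the D-box TTATGTAA (0.938%), the E-box CACGTG (7.15%), CCAAT (37.4%) or TATAAA (13.6%). Pdk2 and Pdp2 each held 1 E-box, 126 and 219 bases before the start, and CCAAT matches (3 and 2). Pcx, which was called rhythmic in neither regimen, also held an E-box, 248 bases before its first listed start, and CCAAT matches. A match is a run of letters and not a binding site.

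Pck1 had the widest range of the 9 genes as a fold of CPM and was high in whichever part of the day lacked food. Under NRF it lay at 932, 2004, 2901 and 3276 CPM at ZT8, in the fasting window, and at 39.4, 49.9, 65.8 and 73.3 CPM at ZT20, in the feeding window. Every fasting mouse was above every fed mouse, and the means of 2278 ± 1044 and 57.1 ± 15.3 CPM (SD, n = 4) were 39.9-fold apart. Under DRF the order was turned around. At ZT8, now in the feeding window, the values were 40.5, 82.8, 133 and 415 CPM, and at ZT20 they were 1405, 1692, 2123 and 2976 CPM. The lowest DRF mean was 146 ± 127 CPM at ZT12 and the highest 2215 ± 577 CPM at ZT24, 15.2-fold apart. Replicate 1 of DRF ZT8, low in adipocyte markers, gave the 40.5 CPM, and replicate 4 of NRF ZT24, high in liver markers, had the lowest Pck1 of its group at 58.0 CPM. Replicate 4 of NRF ZT8, high in skeletal muscle markers, gave the 3276 CPM. The part of any of these in the Pck1 values was not tested.

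The mean of Pck1 was lower at each of the first time points with food, in both regimens. Under NRF it was higher again at ZT24 and ZT0, the end of the feeding window, than at ZT20, with overlapping ranges and no test between them. Under NRF the mean went from 2005 ± 838 CPM at ZT12 through 287 ± 219 at ZT16 to 57.1 at ZT20. Under DRF it went from 1595 ± 303 CPM at ZT0 through 467 ± 87.7 at ZT4 to 168 ± 169 at ZT8. The mice at the first time point with food did not overlap with those before it in either regimen, with a range of 99.4 to 603 CPM against 1128 to 2917 under NRF and of 371 to 567 against 1274 to 2002 under DRF. At the end of the feeding window the mice were less even. NRF mice at ZT0 had a mean of 630 ± 618 CPM and spanned 58.8 to 1452 CPM, those at ZT24, the same clock time, had a mean of 191 ± 153 CPM and spanned 58.0 to 411 CPM, and DRF mice at ZT12 spanned 42.3 to 329 CPM.

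**Figure D1:**
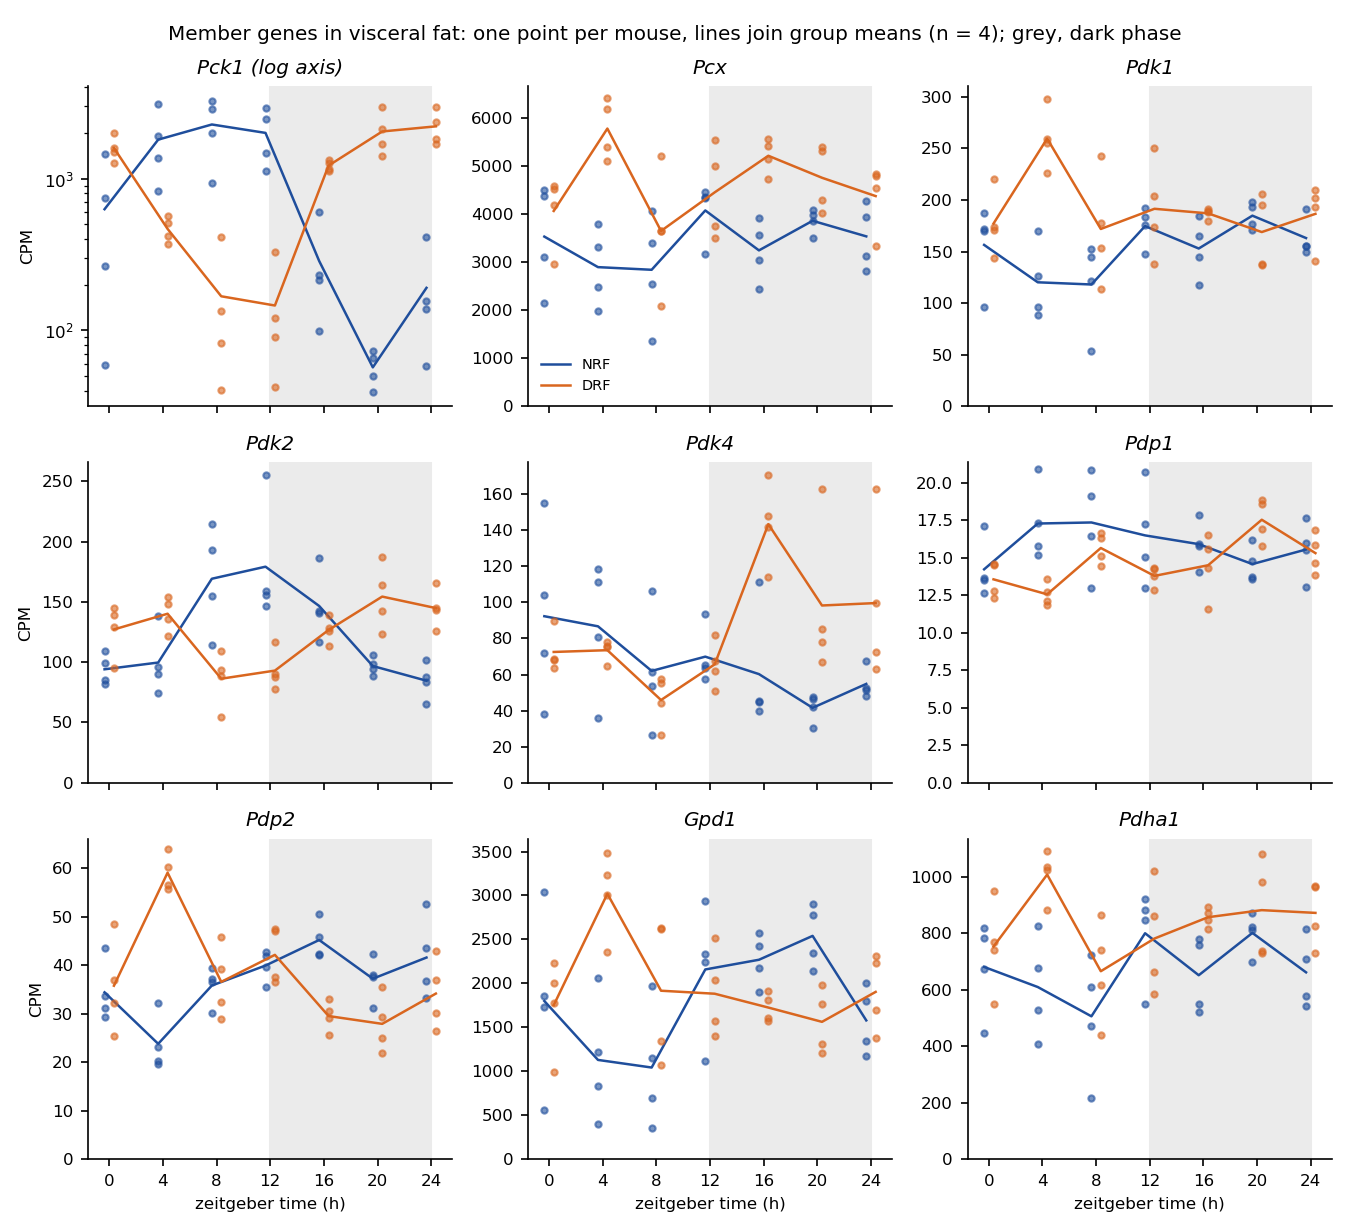
Level of each of the 9 genes in CPM (vertical axis, logarithmic for Pck1 and from 0 for the others) against zeitgeber time in hours, with one point per mouse, lines through the means of 4 mice, NRF in blue and DRF in orange, and the dark phase in grey. The Pck1 curves cross, with 57.1 CPM under NRF and 2049 CPM under DRF at ZT20, and Pcx, Pdk1, Pdp2, Gpd1 and Pdha1 each have their highest DRF mean at ZT4.

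To separate the meal from the clock hour, the mean of the feeding window (ZT16 and ZT20 under NRF, ZT4 and ZT8 under DRF) minus that of the fasting window was averaged over the regimens and called the feeding component. The mean of ZT4 and ZT8 minus that of ZT16 and ZT20, averaged likewise, was called the time of day component. The feeding component passed the test (limma, Benjamini-Hochberg adjusted p under 0.05 over all 25939 genes) for 6 of the 9 genes, 3 higher and 3 lower in the feeding window. Of all genes, 24.5% passed, 12.4% as higher and 12.1% as lower. Pck1 fell by 3.36 ± 0.32 (log2, SE; 10.2-fold) in the feeding window (adjusted p = 2.2e-11), Pdk4 by 0.74 ± 0.18 (1.67-fold; adjusted p = 0.0012) and Pdp1 by 0.17 ± 0.06 (1.12-fold; adjusted p = 0.031). Gpd1 rose by 0.95 ± 0.21 (1.93-fold; adjusted p = 0.00034), Pdp2 by 0.58 ± 0.08 (adjusted p = 2.1e-07) and Pdk1 by 0.39 ± 0.12 (1.31-fold; adjusted p = 0.0079). Pcx (0.11 ± 0.15, adjusted p = 0.67), Pdha1 (0.18 ± 0.12, adjusted p = 0.35) and Pdk2 (-0.23 ± 0.10, adjusted p = 0.076) did not pass. The median over the 9 genes was 0.11, beside -0.0036 over all genes. Of the cell type markers, 1 of 6 adipocyte and 1 of 4 ovarian markers passed in each direction for this component. In addition, 1 of 4 liver markers was higher and 1 of 4 brown adipocyte markers lower in the feeding window. The part of these in the feeding components was not tested.

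None of the 9 genes passed for the time of day component in limma, with a lowest adjusted p of 0.15, against 12.2% of all genes (6.08% higher and 6.08% lower). Before adjustment, Pdha1 and Gpd1 had a p under 0.05 (2 of 9 genes, beside 25.1% of all genes). The largest values were 0.63 ± 0.32 for Pck1 (adjusted p = 0.21; 95% interval -0.017 to 1.27) and -0.44 ± 0.21 for Gpd1 (adjusted p = 0.17; interval -0.86 to -0.027). Pdha1 was at -0.28 ± 0.12 (adjusted p = 0.15; interval -0.53 to -0.026). The intervals are not adjusted for the number of genes, and those of Gpd1 and Pdha1 held negative values only. The lack of a call thus does not show that a gene has no time of day component.

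**Figure D2:**
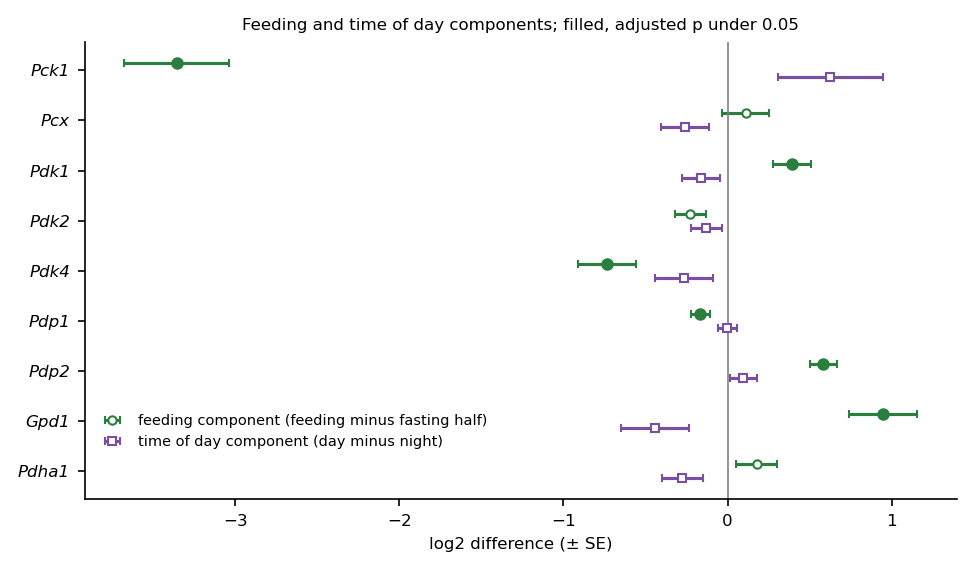
Feeding component (green circles) and time of day component (violet squares) of each gene as log2 differences on the horizontal axis, with bars of 1 SE and filled symbols for an adjusted p under 0.05. Pck1 lies far to the left at -3.36, Gpd1 and Pdp2 to the right at 0.95 and 0.58, and no time of day symbol is filled.

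Within each regimen the same contrast gave fewer calls. Under NRF, 4 of 9 genes passed in limma (all genes, 23.0%, with 11.8% higher and 11.2% lower): Pck1 fell by 3.98 ± 0.45 in the feeding window, and Gpd1, Pdk1 and Pdp2 rose by 1.39 ± 0.29, 0.56 ± 0.16 and 0.49 ± 0.12. Under DRF, 3 of 9 passed (all genes, 18.2%, with 9.19% higher and 8.96% lower): Pck1 fell by 2.73 ± 0.45, Pdk4 fell by 1.00 ± 0.25 and Pdp2 rose by 0.68 ± 0.12. Pck1 and Pdp2 thus passed under both. The Gpd1 difference under DRF was 0.51 ± 0.29 (adjusted p = 0.26) and that of Pdk4 under NRF was -0.47 ± 0.25 (adjusted p = 0.19). The test of the difference between regimens is the time of day component, which passed for neither, so these contrasts are not shown to differ.

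Of the glycerol side, Gpd1 was abundant and differed widely between NRF mice at several time points. At NRF ZT4 it lay at 396, 834, 1221 and 2063 CPM and at NRF ZT8 at 349, 694, 1150 and 1973 CPM. At NRF ZT20, in the feeding window, the values were 2138, 2350, 2774 and 2897 CPM, above all 8 of the mice at ZT4 and ZT8. At NRF ZT12, the end of the fast, the mean was 2158 ± 758 CPM, near the 2268 ± 297 CPM of ZT16, and at ZT0, the end of the feeding window, mice spanned 558 to 3040 CPM. Under DRF the highest group was ZT4, at 2359, 3001, 3228 and 3489 CPM, and the lowest ZT20, at 1202, 1306, 1764 and 1975 CPM. These groups did not overlap and their means were 1.93-fold apart, but they were picked as the highest and lowest. Under DRF, Gpd1 passed neither the limma feeding contrast (adjusted p = 0.26) nor the combined rhythm test (adjusted p = 0.11). Under NRF the highest and lowest means, 2540 ± 356 CPM at ZT20 and 1042 ± 702 CPM at ZT8, were 2.44-fold apart.

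Pcx was compared within the gene only, because its exon length was taken from the values. It passed for the difference in mean level between the regimens and not for the feeding component, and no test compared these effects. Its mean level over the day was higher under DRF by 0.44 ± 0.12 (log2, SE; 1.36-fold; limma adjusted p = 0.0037). The median library was 3530 CPM under NRF and 4753 CPM under DRF, with ranges of 1356 to 4485 and 2093 to 6403 CPM. The separation was clearest at ZT4, where DRF mice had 5107, 5388, 6187 and 6403 CPM and NRF mice 1985, 2489, 3314 and 3782 CPM, without overlap. At ZT16 they did not overlap either, with 4722 to 5552 CPM under DRF and 2440 to 3922 CPM under NRF, but the difference did not pass in limma (adjusted p = 0.12). At ZT12 the means were 4446 ± 977 and 4070 ± 612 CPM, and the ranges overlapped.

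Mean levels also differed for Pdk1 and Pdha1, so that 3 of 9 genes passed for this difference in limma, all higher under DRF, beside 21.7% of all genes in either direction and 11.4% as higher. Pdk1 was higher by 0.34 ± 0.09 (1.27-fold; adjusted p = 0.0057) and Pdha1 by 0.32 ± 0.10 (1.25-fold; adjusted p = 0.016). The Pdha1 call was lost with quantile normalization (0.22, adjusted p = 0.070). For Pdk4 the difference was 0.36 ± 0.15 (adjusted p = 0.076), which passed without the libraries high in epithelial markers (0.41, adjusted p = 0.026). Pck1 had nearly equal daily means, with a difference of 0.05 ± 0.26 (adjusted p = 0.92; interval -0.47 to 0.57), and so had Pdp2 at 0.0026 ± 0.080 (adjusted p = 0.99; interval -0.16 to 0.16). Of 11 marker lists, 2 of 4 macrophage, 2 of 3 mesothelial and 1 of 4 ovarian markers were lower and 2 of 4 brown adipocyte markers higher under DRF, and 1 of 6 adipocyte markers changed in each direction. The summed adipocyte markers had a median of 20304 CPM under NRF and 23553 CPM under DRF. The part of these in the Pcx, Pdk1 and Pdha1 differences, or in those of the pathway lists given further on, was not tested.

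The kinases that inactivate pyruvate dehydrogenase did not share a pattern. Pdk4, the isoform known to rise in fasting muscle and liver, was highest at DRF ZT16, early in the fast, at 114, 142, 148 and 170 CPM, against 39.9, 44.7, 45.1 and 111 CPM at NRF ZT16, in the feeding window. All 4 DRF mice lay above all 4 NRF mice. The lowest DRF group was ZT8, at 26.3, 44.1, 55.2 and 57.8 CPM, and the highest and lowest DRF means were 3.13-fold apart. Under NRF the highest mean was 92.3 ± 49.6 CPM at ZT0, where mice spanned 38.3 to 155 CPM, and the ranges of the highest and lowest groups overlapped. At NRF ZT24, the same clock time as ZT0, the mean was 54.8 ± 8.7 CPM and mice spanned 47.9 to 67.6 CPM.

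Pdk2, the most widely expressed isoform, had its highest NRF group at ZT12, at the end of the fast, with 147, 155, 159 and 256 CPM, and its lowest at ZT24, with 65.7, 83.8, 87.6 and 101 CPM. Under DRF it was highest at ZT20, with 123, 143, 164 and 187 CPM, and lowest at ZT8, with 54.3, 88.3, 93.4 and 109 CPM. Neither pair of groups overlapped, but each was picked as the highest and lowest of its regimen. Its feeding component missed the threshold, and the NRF means of the fasting window were 99.7 ± 27.0 CPM at ZT4 and 169 ± 44.3 CPM at ZT8, with overlapping ranges and no test between them. With quantile normalization or median centring the component passed, at -0.29 (adjusted p = 0.013) and -0.26 (adjusted p = 0.031).

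Pdk1, a kinase known for its induction by hypoxia, had a feeding component of the opposite sign to those of Pdk4 and Pck1. At DRF ZT4 it lay at 226, 255, 259 and 298 CPM, and at NRF ZT4 at 88.3, 96.5, 126 and 170 CPM, without overlap. Its lowest library of all was replicate 2 of NRF ZT8 at 53.5 CPM, the library with the highest macrophage markers. The same library was lowest of all 56 for Pcx (1356 CPM), Gpd1 (349 CPM) and Pdha1 (218 CPM), and among the highest for Pdk2 (193 CPM) and Pck1 (2901 CPM). Without replicate 4 of every group the feeding component of Pdk1 was 0.30 (adjusted p = 0.14).

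The phosphatases that reactivate the enzyme differed from each other. Pdp2, an isoform known to be raised by insulin in fat and liver, was at 55.8, 56.5, 60.2 and 63.9 CPM at DRF ZT4 against 19.6, 20.2, 23.2 and 32.1 CPM at NRF ZT4. At NRF ZT16, the first feeding time point, it was at 42.1, 42.4, 45.7 and 50.6 CPM against 25.5, 29.1, 30.5 and 33.0 CPM at DRF ZT16. Both pairs of groups were apart, in opposite directions, with the fed mice higher. At ZT8 the means were 36.6 ± 7.5 CPM under DRF and 35.8 ± 4.0 CPM under NRF (adjusted p = 0.98), and the ZT20 difference did not pass (-0.42 ± 0.16, adjusted p = 0.089). Pdp1, a calcium-activated phosphatase best known from muscle, stayed within 11.6 to 20.9 CPM in all 56 libraries. It fell in the feeding window, but the call was lost without replicate 2 of NRF ZT8 (-0.14, adjusted p = 0.068).

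Pdha1, the subunit that the kinases and phosphatases act on, was not called rhythmic in either regimen. Its group means ran from 506 ± 217 CPM at NRF ZT8 to 1009 ± 88.2 CPM at DRF ZT4. The time point that passed between the regimens was ZT4, where DRF mice had 884, 1024, 1034 and 1092 CPM and NRF mice 406, 530, 677 and 827 CPM, without overlap. At ZT16 the mice did not overlap either, with 816 to 893 CPM under DRF and 521 to 781 CPM under NRF. That difference did not pass in limma (adjusted p = 0.34).

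Rhythms of 24 h were tested per regimen by combining JTK_CYCLE, a rank test against cosine curves, with a Lomb-Scargle periodogram by Fisher's method, with adjustment over all genes. Both use the same values, and in simulated libraries the combination called genes that had no rhythm, so JTK_CYCLE alone is given beside it. Under NRF, 5 of 9 genes passed (all genes, 42.0%): Pck1, Pdk1, Pdk2, Pdp2 and Gpd1. JTK_CYCLE alone called 4 of them, without Pdk1 (adjusted p = 0.077; all genes, 31.3%). Under DRF, 4 of 9 passed (all genes, 30.4%), namely Pck1, Pdk2, Pdk4 and Pdp2, and JTK_CYCLE alone called the same 4 (all genes, 20.1%). The limma test of a cosine curve called the same 5 genes under NRF (all genes, 33.7%) and the same 4 under DRF (all genes, 26.7%). Pcx, Pdp1 and Pdha1 passed in neither regimen.

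Pck1, Pdk2 and Pdp2 were rhythmic under both regimens, as were 20.8% of all genes. Cosine fits put the peak of Pck1 at 8.02 ± 0.37 h (SE) under NRF and at 21.2 ± 0.44 h under DRF, a shift of 10.8 ± 0.57 h in size (CircaCompare Wald test, adjusted p = 1.0e-21). The Pdk2 peak lay at 11.6 ± 0.59 h and 21.8 ± 0.81 h, a shift of 10.2 ± 1.00 h (adjusted p = 1.6e-12). Pdp2 peaked at 16.4 ± 0.98 h and 6.17 ± 0.74 h, a shift of 10.3 ± 1.23 h (adjusted p = 5.4e-10). All 3 shifts were thus over 10 h in size; 18.9% of all genes were rhythmic under both and passed for phase, and 70.0% of the 5387 genes rhythmic under both had a fitted shift of at least 8 h.

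The fitted peak to trough ratio of Pck1 was 40.1-fold under NRF and 27.0-fold under DRF, and those of Pdk2 were 2.09-fold and 1.68-fold. No member passed for a difference in amplitude in CircaCompare (lowest adjusted p = 0.38; all genes, 1.44%). Before adjustment only Gpd1 had a p under 0.05 (1 of 9 genes, beside 11.3% of all genes). On the log2 scale the Gpd1 amplitude was 0.81 ± 0.17 (NRF) and 0.29 ± 0.17 (DRF), a difference of -0.51 ± 0.24. The joint limma test of rhythm asks whether the cosine curves differ in amplitude or phase, and leaves out their mean level. In it 6 of 9 genes passed (all genes, 36.0%): Pck1, Pdk1, Pdk2, Pdk4, Pdp2 and Gpd1.

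At matched time points, 21 of 63 pairs of a member and a time point differed between DRF and NRF in limma (33.3%, beside 13.9% of such pairs over all genes). DRF was higher in 14 and lower in 7. The 21 became 12 without replicate 2 of every group, 13 without replicate 3, 13 without replicate 4 and 13 at an adjusted p under 0.01. Pck1 differed at all 7 time points and accounts for 7 of the 21, leaving 14 of 56 pairs of the other 8 genes. Its largest differences were 5.12 ± 0.64 at ZT20 (34.9-fold; adjusted p = 2.1e-07) and -4.12 ± 0.64 at ZT8 (17.4-fold lower; adjusted p = 8.1e-06). Pdk2 differed at 5 time points, lower under DRF at ZT8 and ZT12 and higher at ZT4, ZT20 and ZT24.

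ZT4 was the time point at which most members differed, 8 of 9 beside 19.5% of all genes. There Gpd1 was higher under DRF by 1.64 ± 0.41 (3.13-fold; adjusted p = 0.0032), Pdp2 2.47-fold (adjusted p = 2.0e-07), Pdk1 by 1.14 ± 0.23 (2.21-fold; adjusted p = 3.0e-04), Pcx by 1.03 ± 0.29 (2.05-fold; adjusted p = 0.0084) and Pdha1 by 0.77 ± 0.25 (1.71-fold; adjusted p = 0.023). Pck1 and Pdp1 were lower under DRF, by -1.81 ± 0.64 and -0.42 ± 0.12. Pdk4 was the exception, at -0.11. The library size behind CPM was above the recovered reads in every NRF library at ZT4. At DRF ZT4 it was above them in replicates 1 and 2 and below them in replicates 3 and 4. The part of this scaling in the ZT4 differences was not tested. At ZT16, Pdk4 was higher by 1.36 ± 0.35 (2.56-fold; adjusted p = 0.0089) and Pdp2 lower by -0.60 ± 0.16 (adjusted p = 0.013). Pck1 was the third member called at ZT16 (all genes, 9.99%). Members called at the other time points numbered 1 at ZT0 (10.5%), 2 at ZT8 (16.5%), 2 at ZT12 (16.1%), 3 at ZT20 (13.1%) and 2 at ZT24 (11.3%), with the share of all genes in parentheses.

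**Figure D3:**
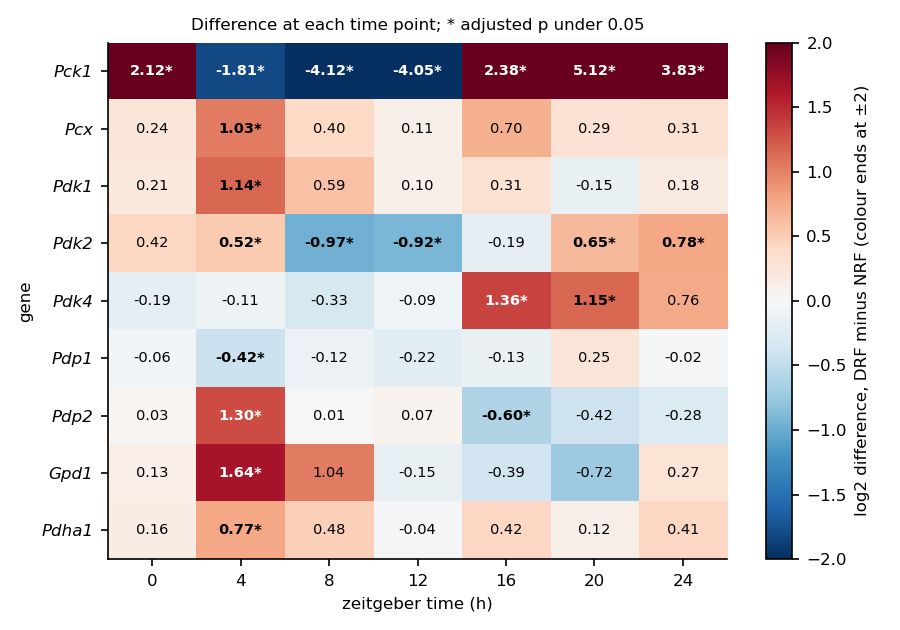
Difference DRF minus NRF in log2(CPM + 1) for each gene (rows) at each zeitgeber time in hours (columns), with red for higher and blue for lower under DRF and a star for an adjusted p under 0.05. The Pck1 row is starred throughout and changes sign from 2.12 at ZT0 to -4.05 at ZT12 and 5.12 at ZT20, and the ZT4 column has 8 stars.

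To compare the kinases with each other, CPM was divided by exon length in kb, and the share of each among the 4 kinase transcripts was taken in every mouse. Lengths are those of all annotated exons, so that an isoform with a long unused exon, as may hold for Pdk1, would read too low. The order of the kinases depends on these lengths: undivided, the median over libraries was 174 CPM for Pdk1 and 123 CPM for Pdk2, so shares are read within a kinase only. The Pdk2 share lay from 37.2 ± 3.4% (SD, n = 4) at DRF ZT16 to 60.1 ± 7.3% at NRF ZT8. The Pdk4 share was highest, 37.7 ± 4.3%, at DRF ZT16 and lowest, 17.2 ± 2.8%, at NRF ZT20. Pdk1 ranged from 18.1 ± 9.2% at NRF ZT8 to 34.6 ± 1.0% at NRF ZT20. Pdk3, which is no member, had group means of 2.4 to 6.4%, and single mice from 1.42% at NRF ZT12 to 11.8% at DRF ZT8.

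The summed kinase level per kb relative to that of both phosphatases was highest early in the DRF fast, 13.0 ± 1.8 at ZT16, and lowest at NRF ZT24, 6.27 ± 1.23. At NRF ZT0, the same clock time as ZT24, the ratio was 8.76 ± 2.75, with a range of 5.92 to 12.5. Within DRF it went from 6.64 ± 0.98 at ZT8 to 13.0 at ZT16, with ranges of 5.37 to 7.55 and 11.1 to 15.0. These groups did not overlap. Under NRF the means lay between 6.27 and 9.49. At ZT16 and ZT20, in the feeding window, they were 7.47 ± 1.62 and 7.07 ± 0.74, and at ZT4 and ZT8, in the fasting window, 9.42 ± 2.06 and 8.69 ± 1.45. No test was run on these ratios.

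**Figure D4:**
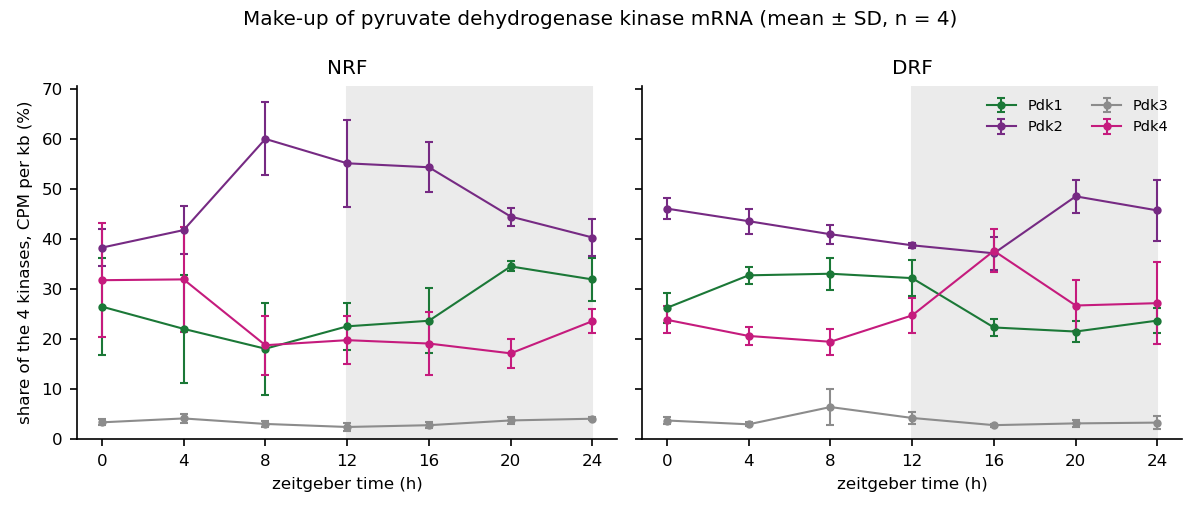
Share of Pdk1, Pdk2, Pdk3 and Pdk4 in the summed level of these 4 kinases (percent of CPM per kb, mean ± SD of 4 mice) against zeitgeber time in hours for NRF (left) and DRF (right), with the dark phase in grey. The Pdk2 share reaches 60.1% at NRF ZT8, and the Pdk4 share reaches 37.7% at DRF ZT16.

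Mice of the same group differed from each other in a structured way. Deviations from the 14 group means over the 56 mice had a Pearson r of 0.95 between Pcx and Pdha1, 0.93 between Pcx and Pdk1, 0.94 between Pdk1 and Pdha1 and 0.88 between Gpd1 and Pdha1. Pck1 deviated with Pdk4 (r = 0.64) and Pdk2 (r = 0.55) and against Gpd1 (r = -0.56). These are descriptions: the values of a mouse come from the same library, and the values share a library size. Over the 14 group means, Pcx and Pdha1 had r = 0.95, and Pck1 and Pdk2 r = 0.71.

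**Figure D5:**
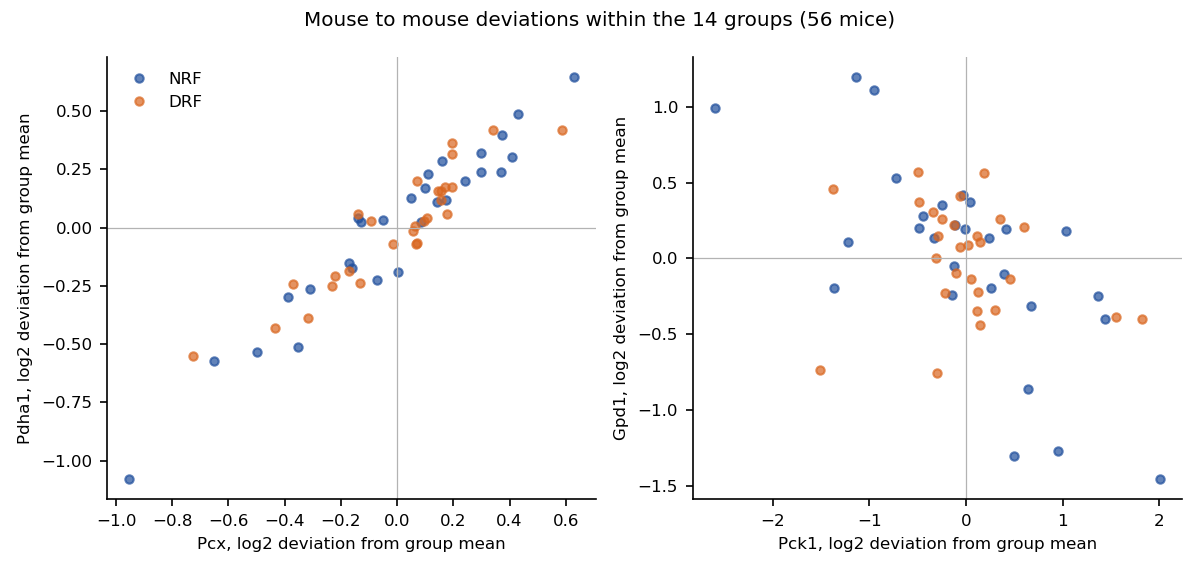
Deviation of each of 56 mice from the mean of its group in log2(CPM + 1), Pdha1 against Pcx on the left and Gpd1 against Pck1 on the right, with NRF in blue and DRF in orange. The left panel is a narrow rising band (r = 0.95), with replicate 2 of NRF ZT8 at its lower end, and the right panel falls (r = -0.56).

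Genes with the most similar profile over the 14 group means, by Pearson r among genes with a mean of at least 1 CPM, were listed for each member as a description. For Pck1 they were Kcns3 (r = 0.97), Chrna2 (0.97) and Gabarapl1 (0.96). For Pcx they included Opa1 (0.98) and Abcd3 (0.97), and for Pdha1 they were Uqcrc2, Pygl and Ndufs1 (0.97, 0.96 and 0.96). Pdk1 had the mitochondrial citrate carrier Slc25a1 (0.98), Gm35986 (0.96) and Gm11788 (0.95). Those of Pdk2 were Gpat4 (0.97), an enzyme of triglyceride synthesis, Slc27a1 (0.96) and Ppm1b (0.94), and those of Gpd1 were Nab1, Eif4g1 and Ppp2r5a (each 0.95). Pdp2 had Mkrn2 (0.91), Tbl2 and Rragc (each 0.89). Pdk4 and Pdp1 had no profile as close, with Rgcc, Actr6 and Tceanc2 (0.88, 0.87 and 0.87) and Kantr, Cacna2d1 and Isl1 (0.88, 0.86 and 0.86).

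Other genes of the pathway were taken from lists of known function, drawn up with earlier results of these data known. Of 9 genes that handle glycerol 3-phosphate, the feeding component rose in 5 and fell in 2 (limma; all genes, 12.4% higher and 12.1% lower; median 0.43, beside -0.0036 over all genes). The largest rises were in Agpat2 (1.04 ± 0.16) and Lpin1 (0.80 ± 0.14), which carry glycerol 3-phosphate towards triglyceride. Agpat2 passed within both regimens, and Lpin1 under NRF (1.25 ± 0.20) but not under DRF (0.34 ± 0.20, adjusted p = 0.27), with a time of day component that passed (-0.46 ± 0.14, adjusted p = 0.025). The falls were in Aqp7, the glycerol channel of fat cells (-0.72 ± 0.09), and Gk, glycerol kinase (-0.49 ± 0.08). Of the other 7 genes of the pyruvate dehydrogenase complex and its regulation, 6 were in the table, and 5 of these had a higher mean level under DRF (all genes, 11.4%), among them Pdhb (0.50 ± 0.14), Pdhx (0.49 ± 0.10) and Dlat (0.46 ± 0.11). Pdhx passed for the feeding component (0.38 ± 0.13), with differences of 0.75 ± 0.18 under NRF and 0.01 ± 0.18 (adjusted p = 0.98) under DRF, and for the time of day component (-0.37 ± 0.13). Under NRF, Pdhb (0.95 ± 0.26, adjusted p = 0.0058) and Dlat (0.69 ± 0.19, adjusted p = 0.0055) rose as well. Under DRF these were at -0.02 ± 0.26 and -0.08 ± 0.19 (adjusted p = 0.98 and 0.83), and neither passed for the feeding component (adjusted p = 0.063 and 0.10) or the time of day component (adjusted p = 0.082 and 0.051).

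Of 8 genes of pyruvate entry and exit, 4 rose in the feeding window (all genes, 12.4%), the largest differences being those of the monocarboxylate transporter Slc16a1 (0.56 ± 0.07) and the mitochondrial pyruvate carrier subunit Mpc1 (0.53 ± 0.17). Within NRF 5 rose (all genes, 11.8%), and within DRF 1 rose and 1 fell (all genes, 9.19% and 8.96%). The Mpc1 difference was 1.11 ± 0.23 under NRF and -0.05 ± 0.23 (adjusted p = 0.93) under DRF, and its time of day component passed (-0.58 ± 0.17, adjusted p = 0.015). In this list 3 genes had a higher and 1 a lower mean level under DRF (all genes, 11.4% and 10.3%). Mpc1 and the pyruvate kinase Pkm had a higher mean level under DRF, by 0.66 ± 0.13 and 0.63 ± 0.12, and the monocarboxylate transporter Slc16a7 a lower one (-0.33 ± 0.06, adjusted p = 2.7e-05). Of 13 genes of oxaloacetate, malate and citrate cycling, 4 rose in the feeding window (all genes, 12.4%), led by the citrate lyase Acly (1.37 ± 0.40) and the dicarboxylate carrier Slc25a10 (0.71 ± 0.18), and 10 had a higher mean level under DRF (all genes, 11.4%). Within NRF 4 rose and 1 fell (all genes, 11.8% and 11.2%), and within DRF 1 rose (all genes, 9.19%). The Slc25a10 difference was 1.00 ± 0.25 under NRF and 0.41 ± 0.25 (adjusted p = 0.29) under DRF. Its time of day component did not pass (-0.30 ± 0.18, adjusted p = 0.30). The Acly difference was 2.50 ± 0.57 under NRF and 0.24 ± 0.57 (adjusted p = 0.84) under DRF, but its time of day component did not pass (-1.13 ± 0.40, adjusted p = 0.058), so the regimens are not shown to differ. The mitochondrial isoform Pck2 had a feeding component of -0.13 ± 0.07 (adjusted p = 0.18). It fell in the feeding window under NRF (-0.30 ± 0.10, adjusted p = 0.021), was at 0.03 ± 0.10 (adjusted p = 0.87) under DRF, and was called rhythmic under both regimens, and its time of day component did not pass (0.17 ± 0.07, adjusted p = 0.11).

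Among 17 transcription factors and cofactors known to act on Pck1 or Pdk4, 6 rose and 6 fell in the feeding window (all genes, 12.4% and 12.1%). The largest falls were in Nr1d1, a clock repressor (-2.20 ± 0.12), and Ppara, a receptor of fasting metabolism (-0.92 ± 0.10). The largest rises were in Srebf1, a regulator of lipid synthesis (1.00 ± 0.14), and Esrra, a nuclear receptor of mitochondrial genes (0.62 ± 0.07). Nr1d1 also had a time of day component of 2.13 ± 0.12, and its feeding contrast was -4.33 ± 0.16 under NRF and -0.08 ± 0.16 under DRF. Pparg, Foxo1 and Nr3c1 were at 0.15 ± 0.10, 0.05 ± 0.05 and -0.0024 ± 0.064 and did not pass.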

How the data were processed

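RNA sequencing of VAT was analysed in 56 libraries, 4 mice in each of 14 groups of regimen and time point. Per the labels, reads were aligned to mm10 with HISAT2 2.0.5 and counted with featureCounts 1.5.0-p3. The deposited values are named TPM but are a log-scaled score: the authors' value is proportional to the log2 of 1 plus the library-scaled read count, divided by exon length, so it was not tested as TPM. Whole reads were recovered from the steps of these values. At the annotated exon lengths, 96.7% of 1284927 testable values came out whole, within 0.005 reads plus the rounding of the values. The annotated length was kept for the 25051 genes that passed, a length that gave whole reads was chosen from the values for 885 others, and 3 genes were left unresolved. Pcx was whole at a length of 4637 bases against 4753 in the annotation, so it was compared within the gene only. CPM was taken from the recovered reads and the library size that the values imply, and tests used log2(CPM + 1) without a filter over 25939 genes. The implied size differed from the recovered reads in both directions. It was 43.1 M against 31110363 recovered reads in replicate 1 of DRF ZT8, and 32.8 M against 34332895 in replicate 3 of DRF ZT4. CPM scaled by the recovered reads was not tested.

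Contrasts, mean levels and cosine curves with a 24 h period were tested in limma 3.58.1 (R 4.3.3) with Benjamini-Hochberg adjustment over all genes and a threshold of 0.05. Rhythms were tested with JTK_CYCLE and Lomb-Scargle, and phase and amplitude with the CircaCompare model, in Python 3.11.15 with scipy 1.17.1. These were rewritten here and are not the published packages. The CircaCompare model was fitted in linear form by least squares, with Wald tests. The phase test was read only for genes rhythmic under both regimens. Simulated data were used to check the rhythm tests, the limma tests of mean level and of a different rhythm, and the phase and amplitude tests. They held no amplitude difference. The feeding, time of day and matched time point contrasts and the limma cosine test per regimen were not checked in this way. The named genes are the 9 members, the leading genes of each pathway list, and the 3 genes with the most similar profile to each member, of which 1 is not reported here. The members, lists and tests were chosen with earlier results of these data known. Alternatives changed the scale, pseudocount, normalization, filter, threshold, rhythm test and libraries. Each library is 1 mouse according to its label, so p-values measure the spread between these mice, and no batch is named in the labels. No pair of libraries held the same values, with at most a share of 0.00084 of genes identical.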

Additional observations from a re-analysis of the deposited data

Results flagged for a closer look

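Over 126 combinations of a gene and a group of 4 mice (9 genes in the same 14 groups), 7 had a mouse far from the others by Dixon's criterion, and chance alone gives about 1 in 20. Of these, 3 were replicate 1 of NRF ZT12, which had 3156 CPM of Pcx against 4322 to 4449 CPM in the others, 550.5 CPM of Pdha1 against 848 to 920 CPM, and 256 CPM of Pdk2 against 147 to 159 CPM. Replicate 3 of DRF ZT24 had 3340 CPM of Pcx against 4531 to 4819 CPM. Pdk1 was at 96.6 CPM in replicate 1 of NRF ZT0 against 170.0 to 187 CPM, and at 192 CPM in replicate 3 of NRF ZT24 against 149.8 to 156 CPM. Pdk4 was at 111 CPM in replicate 3 of NRF ZT16 against 39.9 to 45.1 CPM.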

How the results depend on the processing

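The number of members that passed in each comparison stayed within 1.5 times its value under all alternatives except for the pairs of a member and a time point. Their 21 became 12 to 19 when replicate 1, 2, 3 or 4 was left out of every group (12 without replicate 2, 13 without replicate 3 and 13 without replicate 4, each with 3 mice a group), and 13 at an adjusted p under 0.01. No called difference changed sign under these alternatives. Apart from the pairs, among the members' mean levels, feeding and time of day contrasts, phase shifts and amplitudes, 15 values over all settings lost the call and 13 gained it. Examples beside those given with the results are the Pdk1 feeding contrast under NRF (adjusted p = 0.064 without replicate 2), the Pdp1 feeding component (adjusted p = 0.052 to 0.32 in 5 settings) and, gained, the Pdha1 feeding contrast under NRF (adjusted p = 0.034 with the CPM filter). Replicate 4 of NRF ZT24, replicate 2 of NRF ZT8, and all 4 doubted libraries together (these and the DRF libraries high in epithelial markers) were left out as alternatives chosen after seeing the data, and gave 21, 21 and 23 pairs. Replicate 4 of NRF ZT8 was left out only with replicate 4 of every group. Without the DRF libraries high in epithelial markers there were 24. Replicate numbers name different mice: of 364 pairs of libraries with the same number, 137 had a correlation of deviations over 0.1, and 16 of 56 libraries correlated best with their own number. With a replicate block, 20 pairs passed, and the other counts with such a fit did not change. The median feeding component of genes with a mean of at least 1 CPM was 0.0091, and -0.013 with quantile normalization and -0.025 with median centring. Depth limits Pdp1 most, with 397 reads in its lowest library.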
